A study of Mus musculus with 50 samples.

Results

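The cascade described here comprises 7 genes of the RAS to ERK pathway: Sos1, Hras, Braf, Mos, Map2k1, Mapk3 and Rps6ka1. They were chosen by name, with earlier results of these data known. All 7 were found by symbol among the 16614 genes of the count table, and each passed the filter on low counts. They were measured in single fully grown mouse oocytes held at the germinal vesicle (GV) stage, the prophase arrest before meiosis resumes. The 2 genotypes compared were a conditional knockout of Zfp36l2 (cKO-Zfp36l2) with 24 oocytes from 4 mice, and floxed animals (F/F-) with 26 oocytes from 4 mice. Zfp36l2 encodes an RNA-binding protein of the ZFP36 family, whose members bind AU-rich stretches of 3′ untranslated regions (UTRs) and promote decay of the mRNA. All mice were females 5 weeks old that had received 10 IU of PMSG, a gonadotropin that stimulates follicle growth. Oocytes were collected 46 hours later in medium with 5 µM milrinone, an inhibitor that keeps them arrested. Cumulus-enclosed oocytes were chosen, the surrounding cells were stripped off by pipetting and the zona pellucida was removed. The labels name neither the Cre driver nor the strain. Knockout mouse 1 gave 1 oocyte; the other knockout mice gave 7, 8 and 8, and the floxed mice gave 5, 7, 7 and 7.

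In the canonical pathway a receptor tyrosine kinase recruits the exchange factor SOS1, which loads GTP onto RAS. RAS then activates RAF kinases such as BRAF, and the signal passes through the kinases MEK and ERK to the ribosomal S6 kinases. Oocytes have in addition a germline MAP kinase kinase kinase, MOS, which phosphorylates MEK without RAS. Its mRNA is stored during growth and translated after meiosis resumes, and the MOS to ERK arm is needed for arrest at metaphase II.

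The 3′ UTRs of the 7 genes were read for the sequence TATTTAT (with U for T in the mRNA), the core bound by ZFP36-family proteins, because the deleted gene encodes such a protein. The search was chosen after the data were seen, and was made on the sense strand of the GENCODE M21 transcript of each gene. Braf, Sos1 and Map2k1 hold it and the other 4 do not. The matches are printed as 27 bases of DNA sense sequence, 5′ to 3′, with the core in capitals; all lie on the minus strand of mm10.
Sos1, chr17:80396566-80396592: ggcaactttgTATTTATtagcgagtta
Sos1, chr17:80395213-80395239: ccaaaagtggTATTTATcataatgata
Braf, chr6:39609186-39609212: taatgacaatTATTTATactttttaaa
Braf, chr6:39606850-39606876: aatgaatagtTATTTATttaaagtatg
Braf, chr6:39604875-39604901: aactgagataTATTTATtcttgttagc
Braf, chr6:39604313-39604339: cttaatgtctTATTTATcttcattttg
Map2k1, chr9:64186046-64186072: tgtatttctaTATTTATttttaaatat
The Braf match at chr6:39606850-39606876 lies inside the longer nonamer TTATTTATT; none of the other 6 does. Longer UTRs hold the heptamer more often, so each gene was set beside UTRs within 10% of its own length. The Braf UTR is 7145 bases long with 4 matches, where 76.3% of 114 UTRs of like length hold at least 1 and the mean is 1.60. The Sos1 UTR has 4430 bases and 2 matches, where 63.0% of 403 like UTRs hold one and the mean is 1.14. The Map2k1 UTR has 915 bases and 1 match, found in 20.4% of 877 like UTRs. No match is present in the 2096 bases of Hras, the 762 of Rps6ka1, the 612 of Mapk3 or the 126 of Mos. Among 7 close paralogues of the members (Sos2, Nras, Araf, Map2k2, Rps6ka2, Rps6ka3 and Rps6ka6), Sos2 and Rps6ka2 hold 1 match each. Over 13804 UTRs 27.7% hold the heptamer. A match is a run of letters and not a measured binding site.

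The Mos 3′ UTR is the shortest of the 7, and its last 28 bases (minus strand of mm10) are shown because they hold the AATAAA polyadenylation signal, in capitals.
Mos, chr4:3870657-3870684: ttaggaAATAAAgttaccacgaacttca
The signal ends 16 bases before the annotated end of the transcript.

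Total counts per oocyte ran from 4332108 to 6233840 in knockout oocytes (median 5211210) and from 1746007 to 6120317 in floxed oocytes (median 4761241). Levels are given as counts per 1000000 (CPM) of the counts summed over the oocytes of a mouse, and they are shares of a library, so a change in total mRNA per oocyte would not be seen. The targeted gene itself was low, at 2.77, 1.61, 2.56 and 1.06 CPM in knockout mice and 3.51, 1.96, 4.17 and 3.44 CPM in floxed mice (edgeR adjusted p = 0.208), so its level did not check the labels; the deleted part is not named in the labels. Summed levels of 14 oocyte markers were 5984 to 6731 CPM in knockout mice and 5924 to 7339 CPM in floxed mice. Of these 14, 1 passed the test, upward in knockout mice. Of 16 cumulus and granulosa markers 14 were in the table, with sums of 173 to 330 CPM in knockout mice and 173 to 260 CPM in floxed mice, and 0 of the 14 passed the test. Their highest was Cyp19a1, at up to 101 CPM in a mouse, and none was at 0 in every mouse. Of 2 endothelial markers only Pecam1 was in the table. It was lower in knockout mice, at 18.7 to 35.7 CPM against 91.1 to 175 CPM in floxed mice. Its part in the results was not tested. Theca and stroma markers summed to 2.54 to 6.80 CPM in knockout mice and 1.63 to 6.60 CPM in floxed mice. Blood and immune markers summed to 1.85 to 6.09 CPM in knockout mice and 5.16 to 11.7 CPM in floxed mice.

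In order of level per kilobase of the longest transcript, Mos stood first in both genotypes. It averaged 179 ± 11.8 CPM per kb in knockout mice and 217 ± 13.4 CPM per kb in floxed mice (SD over mice, n = 4 each here and below). In floxed mice that was the 99.3rd percentile of all genes. Map2k1 averaged 128 ± 4.84 CPM per kb in knockout mice and 106 ± 6.39 CPM per kb in floxed mice. Mapk3 averaged 115 ± 5.12 CPM per kb in knockout mice and 123 ± 4.35 CPM per kb in floxed mice. Mos, Map2k1 and Mapk3 were thus well above the other 4 genes, and Map2k1 and Mapk3 stood in opposite order in the 2 genotypes. Hras followed at 22.0 ± 13.9 CPM per kb in knockout mice and 28.5 ± 14.5 CPM per kb in floxed mice. Rps6ka1 followed at 19.2 ± 7.75 CPM per kb in knockout mice and 11.9 ± 4.03 CPM per kb in floxed mice, with ranges of single mice that overlapped those of Hras. Sos1 and Braf were lowest. Sos1 had 7.78 ± 0.658 CPM per kb in knockout mice and 1.74 ± 0.209 CPM per kb in floxed mice. Braf had 3.76 ± 0.249 CPM per kb in knockout mice and 1.60 ± 0.165 CPM per kb in floxed mice. In floxed mice Sos1 and Braf lay within each other's range (1.5 to 2.01 and 1.46 to 1.78 CPM per kb).

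**Figure D1:**
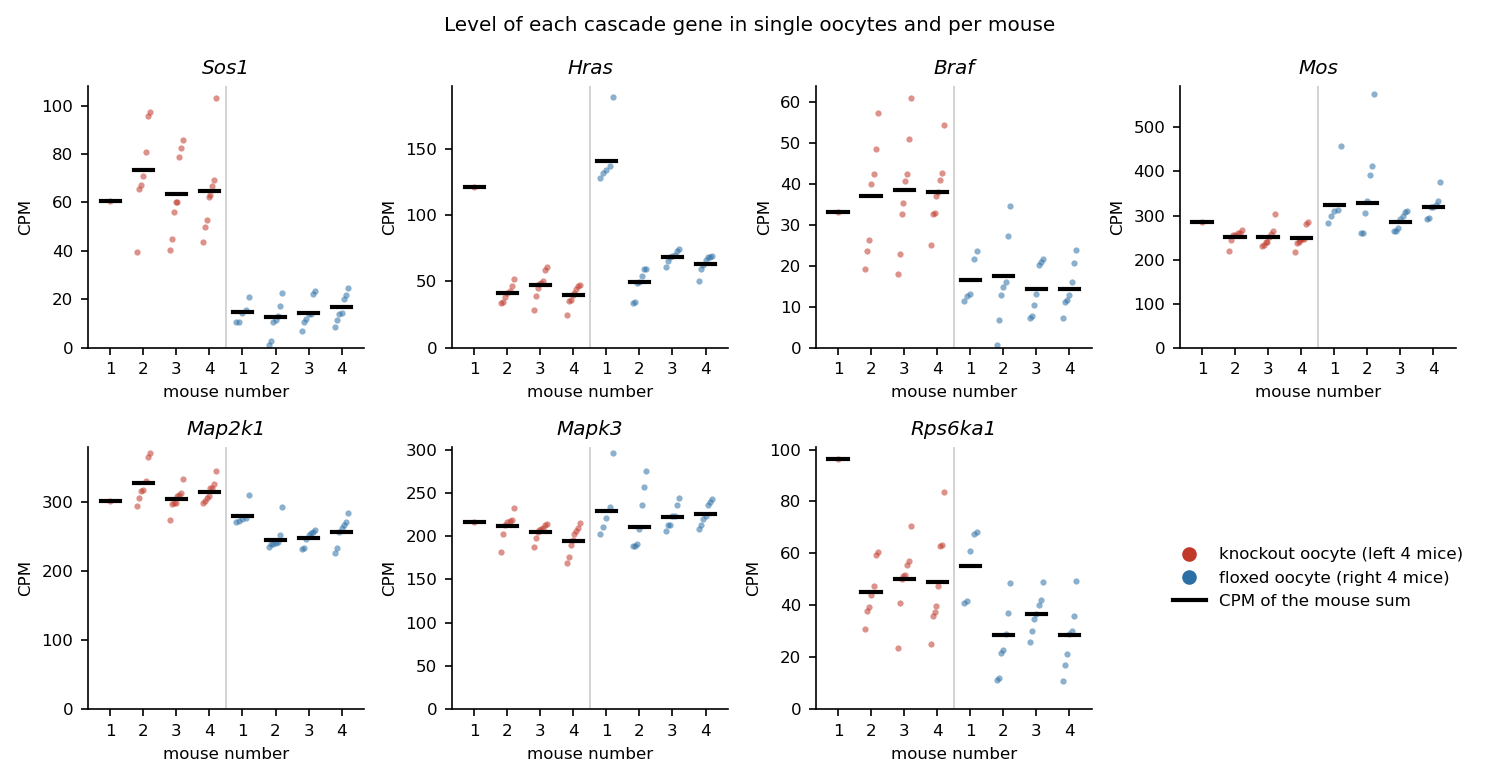
Level of each of the 7 genes in CPM (vertical axes, from 0) in single oocytes (points) and in the summed counts of each mouse (bars), with the 4 knockout mice left of the 4 floxed mice. Every knockout oocyte lies above every floxed oocyte for Sos1, while for Hras the oocytes of mouse 1 stand above all others in both genotypes.

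The comparison of the genotypes asked which of the 7 mRNAs differed in oocytes labelled as Zfp36l2 knockout. Sos1, Braf and Map2k1 were higher in knockout mice and Mos was lower, by edgeR's quasi-likelihood test on the summed counts with an adjusted p under 0.05. That is 3 of 7 higher, where 14.4% of the 15029 genes tested were higher, and 1 of 7 lower, where 13.2% were lower. The 7 genes were chosen with earlier results of these data known, so these counts are a description and not a test. The groups of mice did not overlap for these same 4 genes, beside 31.0% of all genes tested. The changes ran from 4.36-fold for Sos1 to 1.18-fold for Map2k1, and the 2 members with the lowest levels per kilobase, Sos1 and Braf, had the largest.

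Sos1 (chromosome 17, 80393751 to 80480453), the exchange factor that activates RAS, had the largest change of the 7. It had 60.7, 73.6, 63.6 and 64.6 CPM in knockout mice 1 to 4, against 14.5, 12.7, 14.5 and 17.0 CPM in floxed mice 1 to 4. The knockout mice lay far above the floxed mice, which were close to each other. Its 3′ UTR holds 2 of the heptamers printed above, where 63.0% of UTRs of like length hold at least 1. Their part in the change was not tested. The means were 65.6 ± 5.55 CPM in knockout mice and 14.7 ± 1.76 CPM in floxed mice, a log2 fold change of 2.12 (SE 0.16, 95% interval 1.77 to 2.47; edgeR adjusted p = 0.000169). Changes of at least 4-fold upward that passed the test were seen for 3.34% of all genes tested. Single oocytes had 39.4 to 103 CPM in knockout mice (median 64.4) and 1.15 to 24.8 CPM in floxed mice (median 13.8). All 24 knockout oocytes were above all 26 floxed oocytes, which held for none of the other members. Such counts of oocytes, here and for the members below, have no share over all genes beside them. Oocytes of a mouse are not replicates. The floxed level rested on few counts, a median of 67 per oocyte and as few as 2.

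Hras (chromosome 7, 141189105 to 141194005), a RAS GTPase and direct substrate of SOS1, did not pass the test. It had 121, 41.3, 47.1 and 39.4 CPM in knockout mice, against 141, 49.4, 68.5 and 63.4 CPM in floxed mice. Mouse 1 stood far above the rest in both genotypes: the single oocyte of knockout mouse 1 had 121 CPM and the 5 oocytes of floxed mouse 1 had 128 to 189 CPM, where the highest of the other oocytes had 74.2 CPM. The log2 fold change was -0.42 (SE 0.43, interval -1.38 to 0.54; edgeR adjusted p = 0.508). Without mouse 1 of both genotypes it was -0.59 (edgeR adjusted p = 0.00795), without knockout mouse 1 alone -0.999 (0.0412) and without floxed mouse 1 alone -0.07 (0.905). Leaving out mouse 1 of both genotypes raised the calls over all genes, to 3182 higher and 3549 lower from 2164 and 1984. What sets mouse 1 apart was not tested.

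Among MAP kinase kinase kinases, mRNA of the RAS-dependent Braf was higher in knockout mice and mRNA of the germline Mos was lower. Araf, another RAF gene, did not pass the test (log2 -0.03). Among oocytes of 4000000 to 5500000 counts the Mos change did not pass either. Braf (chromosome 6, 39603237 to 39725463) had 33.0, 37.0, 38.3 and 37.9 CPM in knockout mice, against 16.5, 17.4, 14.2 and 14.2 CPM in floxed mice. All 4 knockout mice lay well above all 4 floxed mice. Its 3′ UTR is the one with 4 heptamers among the sequences printed above, where 76.3% of UTRs of like length hold at least 1. Their part in the change was not tested. The means were 36.6 ± 2.42 CPM in knockout mice and 15.6 ± 1.60 CPM in floxed mice, a log2 fold change of 1.19 (SE 0.16, interval 0.84 to 1.55), or 2.29-fold higher (edgeR adjusted p = 0.00111). Rises of at least 2-fold that passed the test were seen for 8.69% of all genes tested. In single oocytes the ranges met, with 17.9 to 60.8 CPM in knockout mice (median 37.5) and 0.660 to 34.6 CPM in floxed mice (median 13.0), and 14 of 24 knockout oocytes were above every floxed oocyte. The end of Braf shares 146 exon bases with Ndufb2 on the opposite strand, and the library kit is not stated to keep strand. Ndufb2 had 33.1 ± 6.80 CPM in knockout mice and 35.7 ± 15.0 CPM in floxed mice (edgeR adjusted p = 0.756).

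Mos (chromosome 4, 3870657 to 3872105) had 284, 251, 251 and 248 CPM in knockout mice, against 324, 329, 286 and 319 CPM in floxed mice. The groups only just separated, since knockout mouse 1 had 284.2 CPM and floxed mouse 3 had 286.0 CPM. The means were 259 ± 17.0 CPM in knockout mice and 315 ± 19.5 CPM in floxed mice, a log2 fold change of -0.32 (SE 0.08, interval -0.50 to -0.14), or 1.25-fold lower (edgeR adjusted p = 0.0159). Single oocytes had 216 to 303 CPM in knockout mice (median 250) and 260 to 576 CPM in floxed mice (median 309). Every knockout oocyte was below the floxed median, and 18 of 24 were below every floxed oocyte.

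The Mos level moved with sequencing depth, which also differed between the genotypes. Across oocytes the Mos count grew with the oocyte's total with a slope of 0.57 in knockout oocytes and 0.47 in floxed oocytes (log2 count against log2 total), where a slope of 1 would leave CPM independent of depth. With 0.95 counts per base of transcript Mos was among the most densely counted genes, and the 182 genes at 0.8 or more counts per base had median slopes of 0.44 in knockout oocytes and 0.48 in floxed oocytes. The 8169 genes under 0.05 counts per base had median slopes of 1.24 in knockout oocytes and 1.11 in floxed oocytes. Other members departed from 1 too. Sos1 had 0.95 in knockout oocytes and 2.13 in floxed oocytes. In the same order, Rps6ka1 had 0.04 and 1.57, Hras 0.39 and 1.16, and Braf 1.47 and 1.29. Map2k1 had 0.75 and 0.92, and Mapk3 0.79 and 0.83. The 3 highest Mos values, 412 to 576 CPM, were in the 3 floxed oocytes under 3000000 counts. Among oocytes of 4000000 to 5500000 counts, 15 from knockout mice (median 4868708) and 16 from floxed mice (median 5013920.5), the Mos log2 fold change was -0.18 (SE 0.07) and did not pass the test (edgeR adjusted p = 0.0971). In the same oocytes Sos1 was 2.04 and Braf 1.08 on the log2 scale, and both passed.

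**Figure D2:**
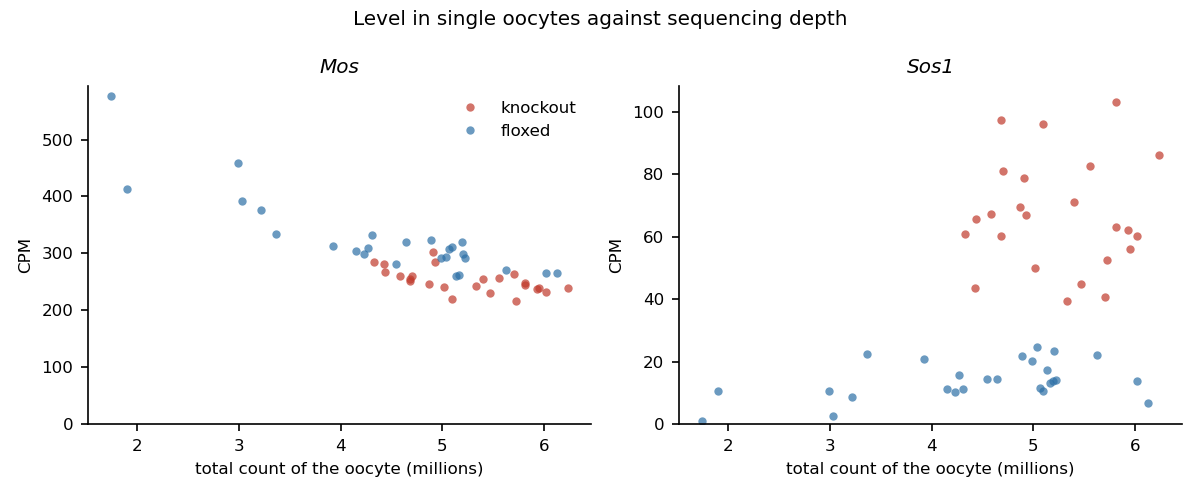
CPM of Mos (left) and Sos1 (right) in single oocytes (vertical axes, from 0) against the oocyte's total count (horizontal axes, in units of 1000000 counts), with knockout and floxed oocytes in different colours. Mos CPM is highest in the floxed oocytes of lowest total, up to 576 CPM, while knockout oocytes stay above floxed oocytes for Sos1 wherever their totals coincide.

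Map2k1 (chromosome 9, 64185770 to 64253631), which encodes MEK1, the kinase on which MOS and BRAF converge, was modestly higher in knockout mice. It had 301, 327, 305 and 315 CPM in knockout mice, against 279, 245, 248 and 257 CPM in floxed mice. The groups did not overlap and the means were 312 ± 11.8 CPM in knockout mice and 257 ± 15.6 CPM in floxed mice. The log2 fold change was 0.24 (SE 0.07, interval 0.09 to 0.39; edgeR adjusted p = 0.0248), and all 24 knockout oocytes were above the floxed median of 256 CPM. The call was lost in 7 of the 8 fits that left out 1 mouse, all but that without floxed mouse 1, with adjusted p up to 0.186 and log2 fold changes of 0.17 to 0.25. Among oocytes of like depth it was 0.29 (edgeR adjusted p = 0.0116).

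Mapk3 (chromosome 7, 126759601 to 126765819), which encodes the MEK substrate ERK1, had 216, 212, 205 and 195 CPM in knockout mice, against 229, 211, 222 and 226 CPM in floxed mice. The groups overlapped through floxed mouse 2. The means were 207 ± 9.22 CPM in knockout mice and 222 ± 7.84 CPM in floxed mice, and the log2 fold change of -0.14 (SE 0.07, interval -0.30 to 0.02) did not pass the test (edgeR adjusted p = 0.172). It passed without knockout mouse 1 (-0.21, edgeR adjusted p = 0.0496). Among oocytes of like depth it was -0.08 (edgeR adjusted p = 0.477), and without oocytes under 3000000 counts -0.10 (0.333).

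Rps6ka1 (chromosome 4, 133847290 to 133887797) encodes RSK1, a kinase that ERK activates. It had 96.5, 45.2, 49.96 and 49.1 CPM in knockout mice, against 55.3, 28.7, 36.5 and 28.4 CPM in floxed mice. Mouse 1 was again the highest in each genotype, and floxed mouse 1 lay above knockout mice 2 to 4. The means were 60.2 ± 24.3 CPM in knockout mice and 37.2 ± 12.6 CPM in floxed mice, and the log2 fold change of 0.66 (SE 0.30, interval -0.01 to 1.32) did not pass the test (edgeR adjusted p = 0.131). Without mouse 1 of both genotypes it was 0.54 (edgeR adjusted p = 0.0125), without floxed mouse 1 0.85 (0.0435) and without knockout mouse 1 0.29 (0.365). In single oocytes the ranges overlapped broadly, at 23.6 to 96.5 CPM in knockout mice and 10.8 to 68.1 CPM in floxed mice.

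The 7 close paralogues named with the 3′ UTR search were compared next. None of the 7 passed the test, where 27.6% of all genes tested did. Sos2, the other SOS gene, had 46.1 ± 8.25 CPM in knockout mice and 29.8 ± 7.31 CPM in floxed mice (log2 0.59, edgeR adjusted p = 0.0662). Rps6ka6 had 51.4 ± 14.1 CPM in knockout mice and 75.6 ± 11.9 CPM in floxed mice (log2 -0.59, edgeR adjusted p = 0.0633). Both passed with DESeq2 (adjusted p = 0.0293 for Sos2 and 0.0251 for Rps6ka6) and without mouse 1 of both genotypes (0.0433 for Sos2 and 0.00939 for Rps6ka6, edgeR). Rps6ka6 also passed without floxed mouse 1 (edgeR adjusted p = 0.0238), without knockout mouse 4 (0.0356) and without oocytes under 3000000 counts (0.0409). Rps6ka3, with 55.3 ± 10.7 CPM in knockout mice and 65.5 ± 11.2 CPM in floxed mice (log2 -0.29, edgeR adjusted p = 0.268), passed without knockout mouse 1 (-0.46, 0.0362) and without mouse 1 of both genotypes (-0.50, 0.0194). The remaining 4 had log2 fold changes from -0.05 to 0.27, and Rps6ka2 was barely detected, at 0 to 6.09 CPM in knockout mice and 0.612 to 4.64 CPM in floxed mice.

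**Figure D3:**
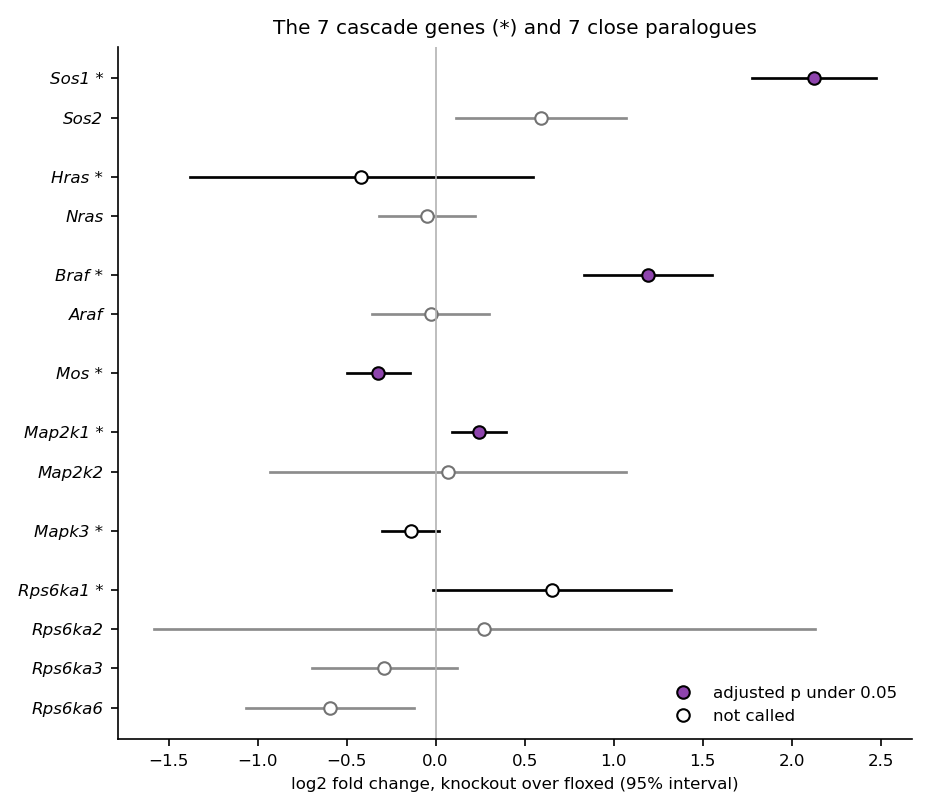
Log2 fold change of knockout over floxed mice (horizontal axis) with its 95% interval for the 7 genes, marked with an asterisk, and 7 close paralogues; filled points passed the test. The 4 filled points are Sos1, Braf, Map2k1 and Mos, with Sos1 at 2.12 and Mos at -0.32.

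Because counts grow with transcript length, the shares of Sos1, Rps6ka1 and Map2k1 in their families were taken from counts per base. Sos1 made up 47.8, 51.4, 42.6 and 53.7% of the SOS pair in knockout mice, against 22.1, 28.7, 20.5 and 29.4% in floxed mice. The groups did not overlap, the mean difference was 23.7 percentage points, and the 2-sided exact permutation test over mice gave the smallest p it can give (p = 0.0286; 0.0857 adjusted over 6 shares). Rps6ka1 made up 47.2 ± 10.6% of 4 ribosomal S6 kinase genes in knockout mice and 29.9 ± 9.23% in floxed mice (exact p = 0.0857; 0.171 adjusted). Map2k1 was most of the MEK pair, at 86.3 ± 5.80% in knockout mice and 85.4 ± 7.42% in floxed mice (exact p = 0.714). None of these 3 shares passed after adjustment.

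**Figure D4:**
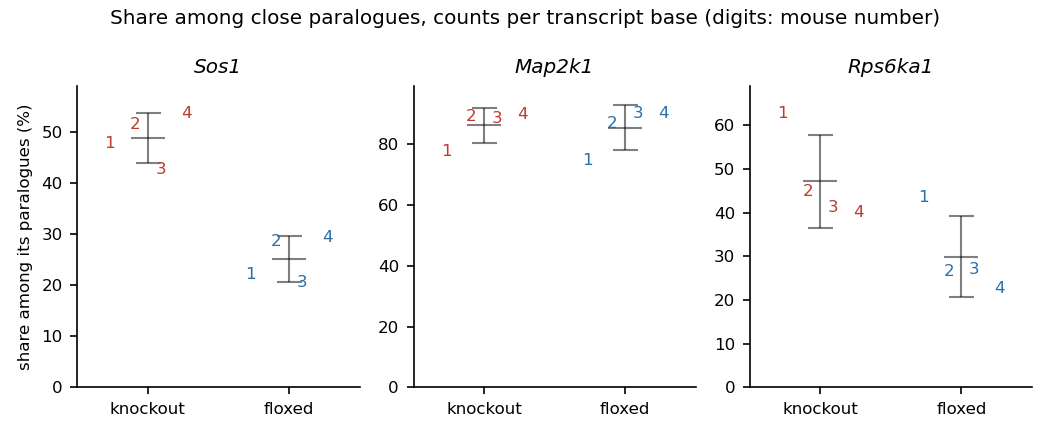
Share of Sos1, Map2k1 and Rps6ka1 among their close paralogues by counts per transcript base, in percent (vertical axis, from 0), for each mouse (digits give the mouse number; lines give the mean and whiskers ± 1 SD over 4 mice), knockout left of floxed. For Sos1 the knockout mice lie at 42.6 to 53.7% and the floxed mice at 20.5 to 29.4%, while the groups overlap for Map2k1 and Rps6ka1.

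The spread between oocytes of a mouse was taken as the SD of log2(CPM + 1) in the 7 mice with at least 5 oocytes. Map2k1 and Mapk3 varied least, with mean SDs of 0.0914 and 0.0985 in knockout mice and 0.0930 and 0.153 in floxed mice. Mos had 0.118 in knockout mice and 0.227 in floxed mice, and Hras had 0.286 in knockout mice and 0.206 in floxed mice. The median over all genes averaging at least 10 CPM was 0.302 in knockout mice and 0.293 in floxed mice. Sos1 and Braf varied more, with 0.400 and 0.484 in knockout mice and 0.686 and 0.775 in floxed mice, where their counts were also lowest. Floxed mouse 2 had the widest spread, 1.27 for Sos1 and 1.47 for Braf. The difference of knockout minus floxed mice was -0.286 for Sos1 and -0.291 for Braf, and without floxed mouse 2 it was -0.0916 and -0.0600. Rps6ka1 had 0.4497 in knockout mice and 0.528 in floxed mice. Exact permutation tests over these 3 against 4 mice gave p from 0.171 to 0.971, and 0.0571 is the smallest p that design allows. No oocyte of either genotype had 0 counts for any of the 7 genes.

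Within a genotype the members varied together weakly or moderately. Pearson's r between pairs of members, on log2(CPM + 1), ran from -0.41 (Map2k1 and Braf) to 0.48 (Sos1 and Braf) over the 24 knockout oocytes. Over the 26 floxed oocytes it ran from -0.66 (Mos and Sos1) to 0.67 (Map2k1 and Hras). Oocytes share a mouse, and the floxed oocytes span a wider range of depth, down to 1746007 counts against 4332108 in knockout oocytes, so these values describe the libraries.

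The 4 members that passed the test were also matched to the genes whose pattern over all 50 oocytes was most like theirs, among 9202 genes averaging at least 10 CPM. Unnamed gene models (Gm and LOC numbers and Rik symbols) were left out of these 9202. Genotype, mouse and depth all enter this measure, so a high r says no more than that the patterns look alike. Closest to Mos were Cpsf4l (r = 0.97), Tm2d3 (0.94) and Ccdc101 (0.94). Cpsf4l had 300.3 ± 24.0 CPM in knockout mice and 371 ± 31.8 CPM in floxed mice (log2 -0.34, edgeR adjusted p = 0.0194), and like Mos it did not pass among oocytes of like depth (-0.19). It also lost its call without floxed mouse 2 (edgeR adjusted p = 0.0550) or floxed mouse 4 (0.0516). Ccdc101 had 171 ± 10.3 CPM in knockout mice and 219.9 ± 13.9 CPM in floxed mice (log2 -0.40, edgeR adjusted p = 0.00744) and passed at like depth (-0.24, 0.0477). Closest to Sos1 were Sirt1 (r = 0.92), which encodes an NAD-dependent deacetylase, Ddx4 (0.92), the germ-cell RNA helicase VASA, and Bdp1 (0.92), a subunit of the RNA polymerase III factor TFIIIB. Sirt1 had 189 ± 26.7 CPM in knockout mice and 53.1 ± 16.7 CPM in floxed mice. Closest to Braf were Smad9 (0.76), a SMAD of the BMP pathway, Dip2c (0.76) and Fam47e (0.76). Smad9 had 35.2 ± 5.79 CPM in knockout mice and 4.94 ± 1.09 CPM in floxed mice. Closest to Map2k1 were Dusp14 (0.85), a dual-specificity phosphatase, Ash2l (0.84), a subunit of histone H3 lysine 4 methyltransferase complexes, and the chaperone Hsp90ab1 (0.84).

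The rest of the pathway was described from 10 lists, arranged by role and including the 7 genes. Of 99 genes listed, 91 were in the table and 84 were tested. Of these 13 were higher in knockout mice and 6 were lower, or 22.6% of the lists beside 27.6% of all genes tested. Their median log2 fold change was 0.05, beside -0.006 over all genes. The lists as a whole thus held changes in both directions, at a share near that of all genes.

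Among regulators of RAS itself, 33.3% of exchange factors, 12.5% of RAS GTPases and 33.3% of GTPase-activating proteins passed, beside 27.6% of all genes tested. Of 6 exchange factors tested, Sos1 and Rasgrp4 passed upward. Rasgrp4 averaged 4.47 ± 3.47 CPM in knockout mice and 0.925 ± 0.479 CPM in floxed mice. It lost its call without any 1 of 6 of the 8 mice (knockout 1, 3 or 4, floxed 2, 3 or 4). Of 8 RAS GTPases, Rras2 alone passed, downward: it had 74.9 ± 19.2 CPM in knockout mice and 159 ± 16.6 CPM in floxed mice, 2.19-fold lower (edgeR adjusted p = 0.00203). Of 9 GTPase-activating proteins, which switch RAS off, Rasal2 rose (70.4 ± 7.21 CPM in knockout mice, 40.2 ± 7.95 CPM in floxed mice) and Rasa2 fell (302 ± 20.9 CPM in knockout mice, 389 ± 17.4 CPM in floxed mice). Dab2ip also passed upward, at 11.3 ± 7.95 CPM in knockout mice and 2.68 ± 1.32 CPM in floxed mice, and lost its call without knockout mouse 2 or without floxed mouse 2, 3 or 4.

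Upstream of RAS, 3 of 11 adaptors passed, or 27.3%. The shares were 11.1% for receptor tyrosine kinases and 40.0% for Sprouty and SPRED genes, beside 27.6% of all genes tested. Shc1, which links receptors to GRB2 and SOS, had 81.4 ± 16.8 CPM in knockout mice and 37.0 ± 4.60 CPM in floxed mice. Crkl, an SH2 and SH3 domain adaptor, had 101 ± 14.6 CPM in knockout mice and 51.0 ± 9.21 CPM in floxed mice. Shc3 was lower, at 28.2 ± 3.62 CPM in knockout mice and 42.4 ± 4.34 CPM in floxed mice, and lost its call without floxed mouse 3 or 4. Of 9 receptor tyrosine kinases Fgfr1 passed, with 48.2 ± 5.84 CPM in knockout mice and 26.9 ± 2.97 CPM in floxed mice. Kit, the oocyte's receptor for the granulosa KIT ligand, did not pass (log2 -0.36, edgeR adjusted p = 0.0747). Among 5 Sprouty and SPRED genes, inhibitors of receptor signalling, Spry4 was higher (682 ± 42.3 CPM in knockout mice, 503 ± 66.4 CPM in floxed mice) and Spry1 lower (69.5 ± 11.1 CPM in knockout mice, 102 ± 8.65 CPM in floxed mice). Spry4 lost its call without knockout mouse 1, 2 or 4.

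At the kinase tiers, 4 of 12 MAP kinase kinase kinases and scaffolds passed: Braf, Ksr1 and Iqgap1 upward and Mos downward. That is 33.3%, beside 27.6% of all genes tested. The shares were 14.3% for kinases activated by ERK and 7.69% for meiotic substrates and regulators of the MOS arm. Ksr1, a scaffold that brings RAF to MEK, had 49.8 ± 9.93 CPM in knockout mice and 17.0 ± 7.65 CPM in floxed mice, 2.87-fold higher (edgeR adjusted p = 0.00600). Iqgap1, a scaffold that binds BRAF, MEK and ERK, had 191 ± 28.6 CPM in knockout mice and 75.4 ± 19.5 CPM in floxed mice, 2.47-fold higher (edgeR adjusted p = 0.00136). Of 7 kinases activated by ERK, Mknk2, which phosphorylates the cap-binding factor eIF4E, passed: it had 40.9 ± 5.50 CPM in knockout mice and 8.29 ± 2.76 CPM in floxed mice, 4.84-fold higher (edgeR adjusted p = 0.000717). Of 13 meiotic substrates and regulators of the MOS arm, 1 passed: Mapk1ip1 had 190 ± 7.29 CPM in knockout mice and 270.2 ± 28.3 CPM in floxed mice, 1.46-fold lower (edgeR adjusted p = 0.00237). The other 12, among them Cpeb1, a regulator of Mos translation, and the MPF subunits Cdk1 and Ccnb1, did not pass.

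**Figure D5:**
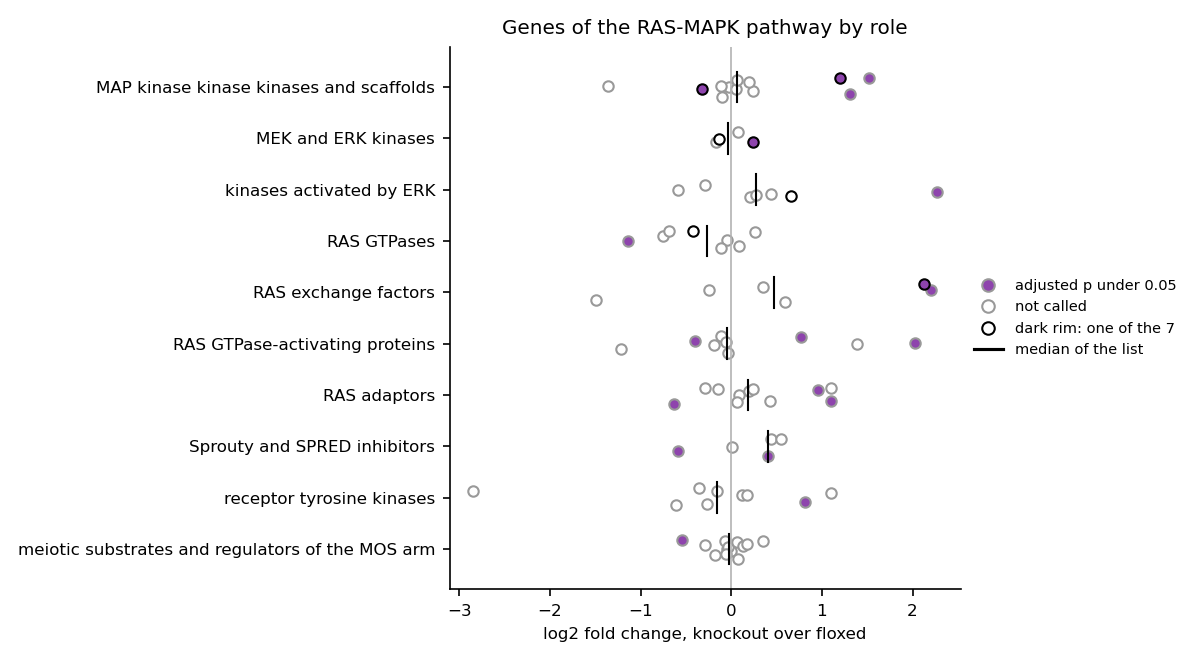
Log2 fold change of knockout over floxed mice (horizontal axis) for the 84 tested genes of the 10 lists, arranged by role; filled points passed the test, dark rims mark the 7 genes and vertical bars mark list medians. Filled points lie on both sides of 0, 13 to the right and 6 to the left.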

How the data were processed

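Counts per gene were deposited by the authors as 1 table of 50 single-oocyte libraries; reads were aligned with STAR to mm10, per the submitters' processing notes. RNA was amplified with a SMARTer low-input kit, per the labels' protocols. Of the counting step, no tool and no handling of strand, multimapping or duplicates is given here. Deposited values are whole numbers of at most 8354 per gene and oocyte. All 150 pairs of oocytes from the same mouse differed by more than sampling noise (chi-square per degree of freedom 5.06 to 25.71), so each was kept.

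Counts were summed per mouse, so mice and not oocytes were replicates. Genes were kept by filterByExpr (minimum count 10; 15029 genes), scaled by TMM and tested with edgeR 4.0.16 (robust quasi-likelihood, genotype as the only term) in R 4.3.3, with Benjamini-Hochberg adjustment over all genes and a threshold of 0.05. The biological coefficient of variation was 35.4%. The fit was tested on simulated data. CPM was the plain share of a mouse's total. Gene coordinates, lengths and 3′ UTRs came from GENCODE M21 on GRCm38 (mm10), matched by RefSeq for 16350 genes and by symbol for 186, with 78 unmatched. Shares within families and spreads were tested by exact 2-sided permutation of mice (numpy 2.4.6, scipy 1.17.1, pandas 2.3.3). Alternatives were RLE scaling, DESeq2 1.42.0, no filter, the mouse number as a block, limma 3.58.1 on mean log2(CPM + 1), no oocytes under 3000000 counts, each mouse left out, and mouse 1 of both genotypes left out.

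The 7 genes, the lists and the tests were chosen with earlier results of these data known. The fit on oocytes of 4000000 to 5500000 counts, the 3′ UTR search and its comparison with UTRs within 10% of the length were chosen after the data were seen; shorter AU-rich and polyadenylation motifs were also counted and are not reported, apart from the Mos signal. Named genes were the 7 members, close paralogues (some, and 3 of the 6 family shares tested, are not reported here), list genes that passed the test, the 3 genes most like each member that passed (Pearson's r on log2(CPM + 1) over all oocytes), and Zfp36l2; Kit was added for its role in oocytes. The labels do not say whether mice of like number share a litter or a day.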

Additional observations from a re-analysis of the deposited data

Results flagged for a closer look

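In 9 of 84 groups of 4 mice checked for the named genes, 1 mouse lay far from the other 3. The rule is set to flag about 1 in 20 groups by chance. These groups share the same 8 mice, so the count was not tested against that level. In knockout mice it was mouse 1, a single oocyte, that was highest for Mos (284 CPM, others 248 to 251), Rps6ka1 (96.5, others 45.2 to 49.96), Hras (121, others 39.4 to 47.1), Map2k2 (85.6, others 35 to 39.2), Crkl (123, others 92.6 to 95.1) and Tm2d3 (154, others 135 to 136). In floxed mice it was mouse 1, with 5 oocytes, that was highest for Map2k2 (94.2 CPM, others 26.7 to 36.8) and Dab2ip (4.66, others 1.88 to 2.14). Floxed mouse 3 was highest for Iqgap1 (105 CPM, others 64.9 to 66.9). Iqgap1 and Crkl passed the test in every fit that left out 1 mouse. What sets mouse 1 of either genotype apart was not tested.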

How the results depend on the processing

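Sos1 and Braf kept their direction and their call in all 16 alternatives (log2 2.02 to 2.25 and 1.08 to 1.31). Mos kept its call in 15 and was -0.18 among oocytes of like depth; with 1 mouse left out it was -0.42 to -0.30. With 1 mouse left out Map2k1 was 0.17 to 0.25, Mapk3 -0.21 to -0.13, Rps6ka1 0.29 to 0.85 and Hras -0.999 to -0.0692. Without mouse 1 of both genotypes Mapk3 (-0.19), Rps6ka1 (0.54) and Hras (-0.59) passed the test. In that fit calls rose over all genes, to 3182 higher and 3549 lower from 2164 and 1984 with all mice. The cause was not tested. Genes higher in knockout mice numbered 2164, and 1359 to 2538 with 1 mouse left out (1359 without knockout 2, 1374 without knockout 3). Genes lower numbered 1984, 1219 (without floxed 4) to 2822 with 1 mouse left out, and 3549 without mouse 1 of both genotypes. Signs turned for genes and shares that did not pass: Map2k2 (0.07; -0.38, -0.02, -0.12 and -0.11 without knockout 1 and floxed 2, 3 and 4; range -0.38 to 0.60 with 1 mouse left out), Rps6ka2 (0.27; -0.19 with limma, -0.41 at like depth, -0.21 and -0.06 without knockout 4 and floxed 2; range -0.21 to 0.66 with 1 mouse left out) and Nras (-0.05; 0.0242 with limma, 0.0422 without floxed 3; range -0.167 to 0.0422 with 1 mouse left out). The Map2k1 share difference was 0.887 points, and -0.0773, -0.308 and -2.74 without knockout 2, knockout 4 and floxed 1 (range -2.74 to 3.77). The share of Sos1 kept its sign without any 1 mouse (22.1 to 25.8 points), where 0.0571 is the smallest p possible. With a pseudocount of 10 the spread differed by -0.0221 for Sos1 and -0.0445 for Braf. For the other 35 named genes, 502 of 560 alternatives kept direction and call, 33 lost the call, 15 gained it and 10 turned the sign.

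Mice of like number were not treated as pairs, since the labels do not say that they share a litter or a day. Their deviations from the genotype means correlated at 0.552, 0.039, 0.446 and 0.321 for mice 1 to 4. Knockout mice 1, 3 and 4 each correlated best with the floxed mouse of their own number. Knockout mouse 2 correlated best with floxed mouse 3 (0.159). With the mouse number as a replicate block, Rps6ka1 (0.64), Hras (-0.47), Sos2 (0.61), Rps6ka6 (-0.62) and Tm2d3 (-0.25) passed the test, Sos1 was 2.13, Braf 1.20, Map2k1 0.24, Mos -0.32 and Mapk3 -0.14, and 2876 genes were higher and 2947 lower.

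Depth limits low genes most: Rps6ka2 and Rasgrp4 rest on few counts per oocyte, and counts of densely covered genes such as Mos grow less than in proportion to depth.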
